A study of Mus musculus with 16 samples.

Results

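Airn and Igf2r are an imprinted pair of overlapping genes on mouse chromosome 17, read from opposite strands. Their RNAs were followed through 2 tables of RNA–DNA contacts from PGK12.1 mouse embryonic stem cells (mESCs), grown with LIF and serum and fixed with formaldehyde. Each line of a table is 1 pair, an RNA tag and a DNA tag that had been ligated to the same bridge adaptor in the nucleus. All pairs whose RNA tag the deposited tables name Airn or Igf2r were taken, which are 189 of 1305107 pairs (2 of 10176 RNA names) in Input and 310 of 1415135 pairs (2 of 10660 RNA names) in H3K27me3-RADIP. Input is the fixed, ligated lysate without antibody, and H3K27me3-RADIP is the same material pulled down with an antibody to H3K27me3, the histone mark left by Polycomb repressive complex PRC2. The labels give 8 libraries for each condition, which the authors had merged, and not which of them form a biological replicate, so each condition is 1 table and a difference between the tables compares those libraries and not the conditions, with no replicate error and no test. Both conditions come from the same untreated, unmodified cell line, and the tables do not separate the maternal from the paternal chromosome.

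Genomic imprinting is the silencing of a gene on the chromosome inherited from one parent. Igf2r encodes the receptor that binds insulin-like growth factor 2 and carries it to lysosomes, and it restrains fetal growth. Airn is a long non-coding RNA (lncRNA) that starts within an intron of Igf2r, at a CpG island that is methylated on the maternal chromosome, and is made from the paternal one. Its transcription crosses the Igf2r start site and silences paternal Igf2r, and in placental cells Airn also acts at a distance on Slc22a2 and Slc22a3, genes for organic cation transporters, together with repressive histone marks.

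In the annotation used here (mm10), Igf2r (ENSMUSG00000023830.14, protein-coding) lies on the minus strand at chr17:12682406-12769664, and Airn (ENSMUSG00000078247.5 in the tables, antisense lncRNA) on the plus strand at chr17:12741311-12860136. The genes share a stretch of 28.4 kb, chr17:12741311-12769664, which holds both start sites. Lower coordinates are therefore downstream of Igf2r but upstream of the Airn start site, on the side where Slc22a2, Slc22a3 and Plg follow. On the other side are the 3′ end of Airn and Mas1.

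The 250 bases before each start site of RefSeq (GRCm38.p6), which held both genes and Slc22a3, were read. For Igf2r the RefSeq start lies slightly upstream of the GENCODE start at 12769664, from which distances are given here. They are shown because DNA tags of both RNAs lay near these start sites, and capitals mark each CG dinucleotide. The first is Airn (chr17:12741061-12741310, plus strand), the next Igf2r (chr17:12769707-12769956, minus strand), the last Slc22a3 (chr17:12507705-12507954, minus strand), each 5′ to 3′.
Airn: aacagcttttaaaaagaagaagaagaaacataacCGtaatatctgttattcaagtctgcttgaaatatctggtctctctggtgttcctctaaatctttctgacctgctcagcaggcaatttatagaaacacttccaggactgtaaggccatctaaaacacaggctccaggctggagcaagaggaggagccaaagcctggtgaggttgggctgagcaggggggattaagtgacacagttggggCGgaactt
Igf2r: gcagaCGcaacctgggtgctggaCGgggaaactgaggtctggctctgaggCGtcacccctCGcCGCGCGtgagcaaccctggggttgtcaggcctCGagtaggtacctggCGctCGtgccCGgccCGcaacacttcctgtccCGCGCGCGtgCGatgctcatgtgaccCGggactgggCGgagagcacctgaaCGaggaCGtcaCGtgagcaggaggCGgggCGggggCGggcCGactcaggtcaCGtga
Slc22a3: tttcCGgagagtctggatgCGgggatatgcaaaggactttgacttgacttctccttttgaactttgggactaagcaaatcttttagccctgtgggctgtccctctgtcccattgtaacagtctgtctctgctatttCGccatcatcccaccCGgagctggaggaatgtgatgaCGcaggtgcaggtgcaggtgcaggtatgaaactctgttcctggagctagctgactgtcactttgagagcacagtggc
The stretch before Igf2r holds 27 CG dinucleotides, a number reached by 8.56% of 32851 promoter stretches of the same length. That before Slc22a3 holds 5, reached by 55.6%, and that immediately before the annotated Airn start holds 2, reached by 81.2%. The count was of CG on the strand shown, which reads the same on the other strand, and describes only this window.

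The longest-range pair of each RNA in each table shows what a pair is. Each tag is given in the tables as a window of 24 bases, which may be shorter than the tag that was sequenced, and is printed from the reference with the base at its centre in capitals, the RNA tag on the strand of the RNA and the DNA tag on the plus strand. In Input, the Airn pair farthest apart joined an RNA tag at chr17:12745375-12745398 to a DNA tag at chr17:12846372-12846395, a distance of 101 kb, and both tags were inside the Airn gene.
Airn RNA tag, Input: acagcgatcctcCagaagagtggg
Airn DNA tag, Input: gagtttcgctccCtcctccctgtt
In H3K27me3-RADIP, the Airn pair farthest apart spanned 728 kb, from an RNA tag at chr17:12831866-12831889 to a DNA tag at chr17:12104068-12104091 beside Agpat4, the gene of a phospholipid acyltransferase.
Airn RNA tag, H3K27me3-RADIP: cagccaggcaaaTcaaagtcaacc
Airn DNA tag, H3K27me3-RADIP: tctctccagagtTtcatctgaatc
For Igf2r the extremes were alike in size but on opposite sides. The Input pair reached 233 kb to a DNA tag at chr17:12950607-12950630, on the high-coordinate side, and the H3K27me3-RADIP pair reached 255 kb to chr17:12502945-12502968, inside Slc22a3.
Igf2r DNA tag, Input: ttcggtaaaggtTttgttttggct
Igf2r DNA tag, H3K27me3-RADIP: aacagcaggcagGagcagaagcct
Nearest to the Slc22a3 start site lay a DNA tag of Igf2r in H3K27me3-RADIP, at chr17:12508040-12508063 and 0.348 kb away, joined to an RNA tag at chr17:12713214-12713237.
Igf2r RNA tag, near Slc22a3: ttttgttttgtCttttcctgcttt
Igf2r DNA tag, near Slc22a3: ccctatcgtttgGcacagccggtt
The nearest Airn DNA tag was at chr17:12505609-12505632, 2.08 kb away, joined to an RNA tag at chr17:12769221-12769244 within the stretch shared by both genes.
Airn RNA tag, near Slc22a3: ccgcccgacttaTgacagccacaa
Airn DNA tag, near Slc22a3: gtcatgccaaccTttctagggtgg
Each of these tags occurs at 1 place in the reference chromosomes.

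Markers of the labelled cell type were partly present among the RNAs of the tables. Of 10 embryonic stem cell genes, 4 were listed in Input and 5 in H3K27me3-RADIP. Esrrb had 2388 and 2500 pairs, most of the sum of this list, Tfcp2l1 had 441 and 484, and Zfp42 had 130 and 98. Of 6 genes in each other list, 3 and 2 were listed for primitive endoderm, 1 and 1 for trophoblast, and 0 and 1 for fibroblast feeders. Pou5f1 and Nanog, which define the cell type, were not listed in either table, and the tables hold chromatin contacts rather than RNA levels. Summed over each list, stem cell genes held 2972 pairs in Input against 3103 in H3K27me3-RADIP, those of trophoblast 7 and 19, of primitive endoderm 45 and 56, and of fibroblast feeders 0 and 7. The part of other cells in the results was not tested.

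More of the H3K27me3-RADIP table came from Airn, while Igf2r took nearly the same share of both. Airn had 68 pairs in Input against 173 in H3K27me3-RADIP, or 52.1 and 122 pairs per 1000000. This is a ratio of 2.35 (95% interval 1.76 to 3.15, counting error only) and a log2 ratio of 1.23. Igf2r had 121 and 137 pairs, or 92.7 and 96.8 per 1000000, a ratio of 1.04 (0.812 to 1.34). The number of Airn pairs for each Igf2r pair went from 0.562 in Input to 1.26 in H3K27me3-RADIP, an odds ratio of 2.25 (1.55 to 3.26). Over all listed pairs the antisense RNA was thus the less frequent of the pair in Input and the more frequent in H3K27me3-RADIP. This rests on bins listed in 1 table only: over bins listed in both, Airn stayed below Igf2r in H3K27me3-RADIP, with 91 against 121 pairs, and the odds ratio was 1.13 (0.749 to 1.70). With RNA tags outside the overlap only, it was 1.497 (0.887 to 2.53).

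A ratio of at least 1.41 was seen for 24.5% of the 571 lncRNAs listed in both tables and for 17.0% of the 8158 protein-coding RNAs, so passing that fold does not set Airn apart. Among the 166 lncRNAs with at least 50 pairs in all, 28.9% passed it, the median ratio was 1.08 and Airn ranked 10. This rank is that of the ratio over all listed pairs, which falls to 1.23 over bins listed in both tables and to 1.29 with unlisted Input bins at the most they can hold, both under 1.41. By number of pairs Airn was number 56 of 851 lncRNAs in Input and number 32 of 1001 in H3K27me3-RADIP. Igf2r ranked 2126 by ratio among 5359 protein-coding RNAs with at least 50 pairs, whose median was 0.951. Kcnq1ot1, the antisense lncRNA of another imprinted cluster, had 5350 and 11139 pairs, a ratio of 1.92 (1.86 to 1.98) and rank 25.

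**Figure D1:**
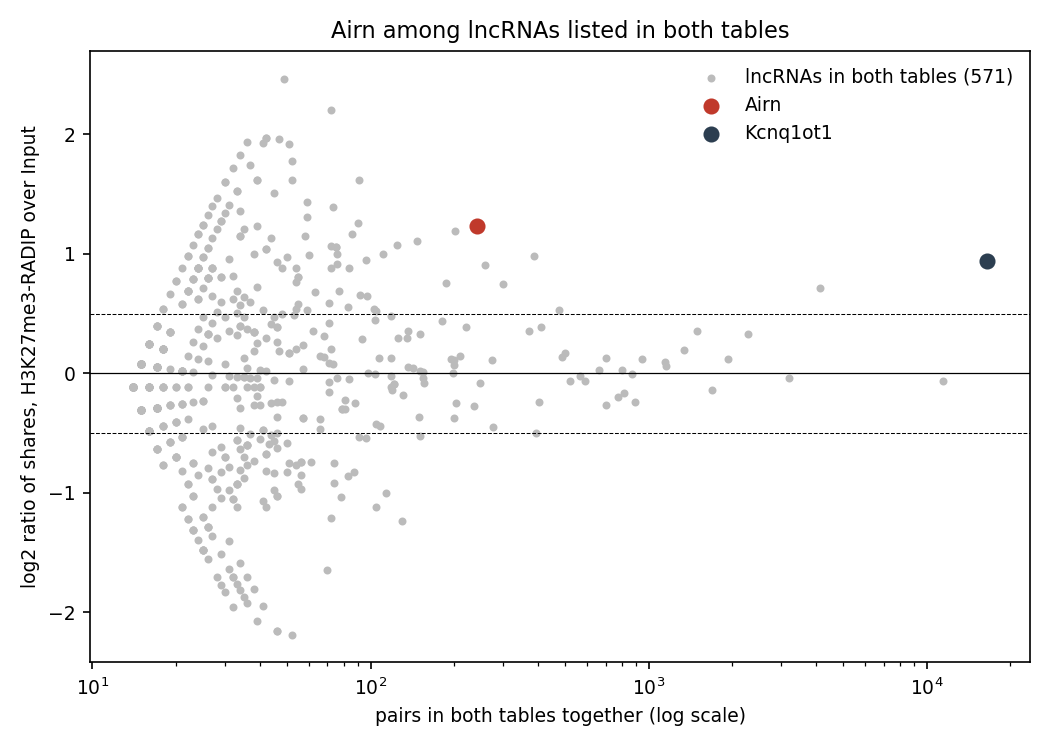
Each point is 1 of the 571 lncRNAs listed in both tables, with the pairs of both tables together on a log axis and the log2 ratio of its shares on the vertical axis. Dashed lines mark log2 ratios of 0.5 and -0.5, and Airn lies at 1.23 and Kcnq1ot1 at 0.94.

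Along chromosome 17, the DNA tags of Airn were listed in 5 bins of 25 kb in Input and in 13 in H3K27me3-RADIP. All 5 Input bins lay over the Airn gene and all were listed again. They held 10, 15, 14, 14 and 15 pairs in Input, in order from the start of Airn towards its 3′ end, and 17, 32, 15, 15 and 12 in H3K27me3-RADIP. The level over the gene body was thus nearly even in Input, whereas in H3K27me3-RADIP it was highest in chr17:12750001-12775000, the bin with the Igf2r start site. Summed over these bins Airn had 68 and 91 pairs, a ratio of 1.23 (0.892 to 1.72), an interval that includes 1. Over bins shared by both tables, 11.5% of 494 lncRNAs and 6.77% of 8322 RNA names had a ratio of at least 1.41.

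The 8 bins listed only in H3K27me3-RADIP held 82 pairs, 47.4% of its Airn pairs. One was the bin at the 3′ end of Airn, chr17:12850001-12875000, with 11 pairs. It also overlaps Mas1, the gene of an angiotensin peptide receptor. Another 2 covered the rest of Igf2r, chr17:12675001-12700000 and chr17:12700001-12725000, with 11 pairs each. Then came a gap that includes Slc22a2, followed by 4 adjoining bins over and next to Slc22a3, from chr17:12450001-12475000 to chr17:12525001-12550000, with 13, 10, 10 and 8 pairs. The last lay at the start of Agpat4, chr17:12100001-12125000, with 8 pairs. A doubling or more of the number of listed bins was seen for 18.2% of the 571 lncRNAs and 13.1% of all 8756 RNA names, and for 2.51% of the 2874 RNA names with at least 5 bins in Input.

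A bin that is not listed did not pass the authors' q-value of 0.1 and need not be empty. In Input, RNAs with the p-value of Airn at the same pair count (5 others) had bins of 8 pairs listed, with a q-value of 0.0448, and none of fewer, so an unlisted Airn bin held at most 7 pairs. Were all 8 bins at this limit, Input would have 124 Airn pairs, and the ratio would be 1.29. These bins were taken for their counts in H3K27me3-RADIP, and bins listed in neither table are not counted, so this value is a description and no test of a difference. These 8 bins held 8 to 13 pairs in H3K27me3-RADIP, so those with 8 lie just past the listing limit, with a q-value of 0.0424, and the one with 13 well past it, at 2.19e-05. Of the 105 additional Airn pairs in H3K27me3-RADIP, 23 fell in shared bins.

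Igf2r had as many listed bins in Input as in H3K27me3-RADIP, with 6 bins in each table and 4 of them shared. These 4 cover the Igf2r gene, and from its 3′ end to its start site they held 26, 28, 20 and 28 pairs in Input and 23, 35, 30 and 33 in H3K27me3-RADIP. Their sums of 102 and 121 give a ratio of 1.09 (0.834 to 1.44). Beyond the gene, Input listed 11 pairs in the next bin of the Airn body, chr17:12775001-12800000, and 8 in chr17:12950001-12975000, which overlaps Acat2 and Wtap, an adaptor of the enzyme that methylates adenosine in RNA. H3K27me3-RADIP listed 8 pairs at the Slc22a3 start, chr17:12500001-12525000, and 8 at the 3′ end of Airn. In 3 of these 4 bins the 8 pairs were the fewest listed for Igf2r.

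**Figure D2:**
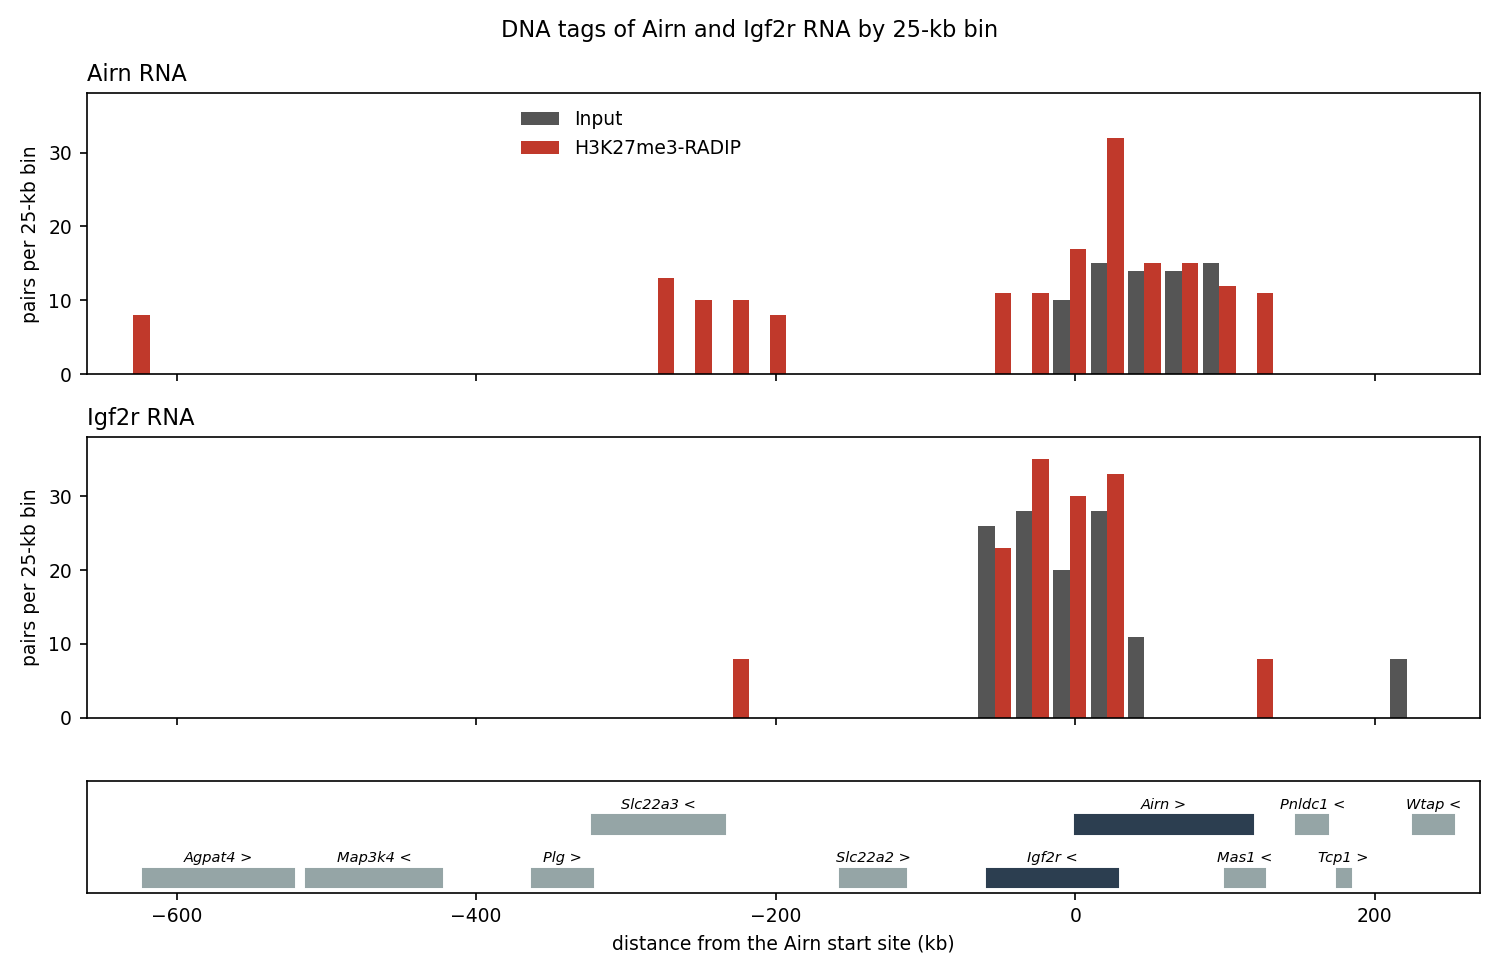
Bars give the pairs of Airn RNA (top) and Igf2r RNA (middle) per 25-kb bin of DNA, in Input (grey) and H3K27me3-RADIP (red), and the lowest panel gives selected genes with the direction of transcription, all by distance from the Airn start site in kb. A missing bar is a bin not listed, which for Airn can hold up to 7 pairs; red bars without a grey partner are seen for Airn at 8 bins and for Igf2r at 2.

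The listed Airn contacts outside its own gene lay almost wholly on one side, that of Igf2r, Slc22a2 and Slc22a3. In Input 65 pairs had the DNA tag in the Airn gene, 3 at lower and 0 at higher coordinates, so that 4.41% lay outside (1.51 to 12.2). In H3K27me3-RADIP 91 lay in the gene, 80 at lower and 2 at higher coordinates, so that 47.4% lay outside (40.1 to 54.8), and 97.6% of these were on the low-coordinate side (91.5 to 99.3). Airn is transcribed away from that side, so the pairs lay upstream of its start site, up to 640 kb away in the bin at Agpat4, which is at the listing limit. The listed Input pairs reached 5.89 kb, and unlisted ones may reach farther. Of the 80 low-side pairs, 71 were in 7 bins listed in H3K27me3-RADIP only. Input may hold up to 49 unlisted pairs there, which would put 52 of 117 pairs, 44.4%, on that side, so these tables do not show that the share outside the gene differed. At least 90% of outside pairs lay on 1 side for 25.4% of the 71 lncRNAs and for 15.9% of the 3222 RNA names with at least 20 such pairs in H3K27me3-RADIP. One-sidedness as such was therefore common, and the median lncRNA had 73.7% on its larger side.

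The share of pairs outside the own gene rose between the tables for many RNAs, by at least 10 points for 41.2% of 5537 RNA names with at least 50 pairs and for 27.7% of the 166 lncRNAs. Airn, with 43.0 points, ranked 63 of these RNA names and 3 of the lncRNAs, whose medians were 7.26 and 2.98 points. Unlisted bins bear on this share as on the pair counts. Igf2r went the other way, by -6.16 points, with rank 4853.

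Igf2r was less one-sided. Its DNA tags in Input lay 95 times in the gene, 6 times at lower and 20 times at higher coordinates, with 21.5% outside (15.1 to 29.6). In H3K27me3-RADIP these were 116, 10 and 11, with 15.3% outside (10.2 to 22.3). The low-coordinate side held 23.1% of the outside pairs in Input (11.03 to 42.1) and 47.6% in H3K27me3-RADIP (28.3 to 67.6), intervals that overlap. All listed pairs of both RNAs, in both tables, joined chromosome 17 to itself. Contacts with other chromosomes at under 8 pairs in a bin would not be listed, so their absence was not shown.

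Distances among the listed pairs followed the same pattern. The median distance between the tags of an Airn pair was 4.12 kb in Input (quartiles 0.92 and 12.2) and 43.6 kb in H3K27me3-RADIP (8.61 and 243). Over 100 kb apart were the tags of 1 of 68 Airn pairs in Input, 1.47% (0.26 to 7.87), and 51 of 173 in H3K27me3-RADIP, 29.5% (23.2 to 36.7). Of these 51, 49 were in the 5 bins at Slc22a3 and Agpat4 listed in H3K27me3-RADIP only, where Input may hold up to 35 unlisted pairs. That would make 36 of 103 Input pairs, 34.95%, so the medians and shares describe the listed pairs and do not show a difference in reach. For Igf2r the medians were 9.52 and 8.81 kb, and 7.44% (3.96 to 13.5) and 8.76% (5.08 to 14.7) of the pairs spanned over 100 kb.

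**Figure D3:**
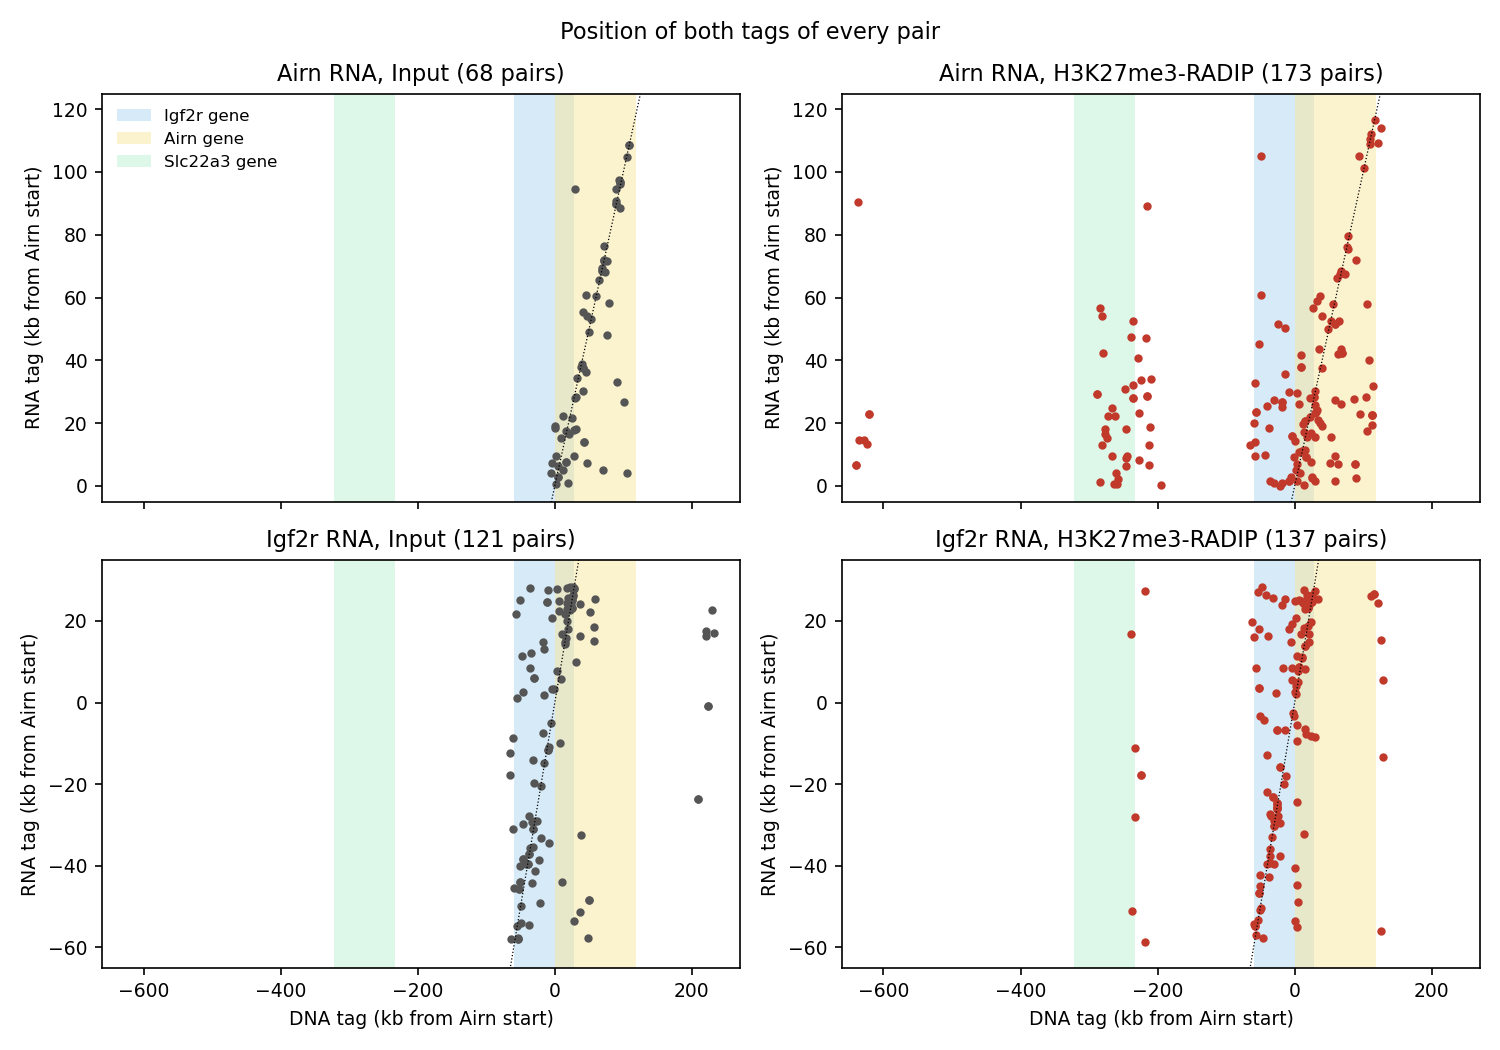
Each point is 1 pair, with the position of its DNA tag on the horizontal and of its RNA tag on the vertical axis, both in kb from the Airn start site, and shading marks 3 genes. The dotted line marks equal positions. Listed Airn points extend from it towards Igf2r and Slc22a3 in H3K27me3-RADIP (173 pairs) and lie up to 101 kb from it in Input (68 pairs). The bins at Slc22a3 and Agpat4 were not listed for Airn in Input and need not be empty. In the Igf2r panels (121 and 137 pairs) most points lie near the line, and the few far ones lie at high coordinates in Input and on both sides in H3K27me3-RADIP.

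In both tables most of the listed Airn RNA tags came from the 5′ part of the transcript. The gene was cut into 3 equal parts of 39.6 kb. The part at the 5′ end gave 54.4% of the RNA tags in Input (42.7 to 65.7) and 72.3% in H3K27me3-RADIP (65.2 to 78.4), intervals that overlap. The median RNA tag lay 37.6 kb from the 5′ end in Input and 23.2 kb in H3K27me3-RADIP. Of the 173 H3K27me3-RADIP pairs, 82 were in bins listed in that table only. Among pairs with the DNA tag within the gene, that part gave 52.3% in Input (40.4 to 64.0) and 64.8% in H3K27me3-RADIP (54.6 to 73.9), intervals that overlap. Among H3K27me3-RADIP pairs on the low-coordinate side it gave 82.5% (72.7 to 89.3).

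Among listed pairs, the stretch that both genes share carried most of the difference between the tables. Airn RNA tags inside it numbered 29 in Input and 106 in H3K27me3-RADIP, a ratio of 3.37 (2.22 to 5.27), against 39 and 67 in the rest of Airn, a ratio of 1.58 (1.05 to 2.42). Among pairs whose DNA tag lay within the Airn gene, the stretch gave 26 and 51, a ratio of 1.81 (1.11 to 3.02), and the rest of Airn 39 and 40, a ratio of 0.946 (0.593 to 1.51). Over the 5 bins listed in both tables, the stretch gave 29 and 53 pairs, a ratio of 1.69 (1.05 to 2.75), and the rest of Airn 39 and 38, a ratio of 0.899 (0.559 to 1.44). In each of these comparisons the intervals of the stretch and the rest overlap. All but the last include bins not listed for Airn in Input, which may hold up to 7 pairs each. Igf2r RNA tags in the same stretch, on the opposite strand, numbered 60 and 67, a ratio of 1.03 (0.716 to 1.48), and outside it 61 and 70, a ratio of 1.06 (0.740 to 1.52). The tables assign RNA tags by strand, and all Airn tags there were on the plus strand and all Igf2r tags on the minus strand.

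**Figure D4:**
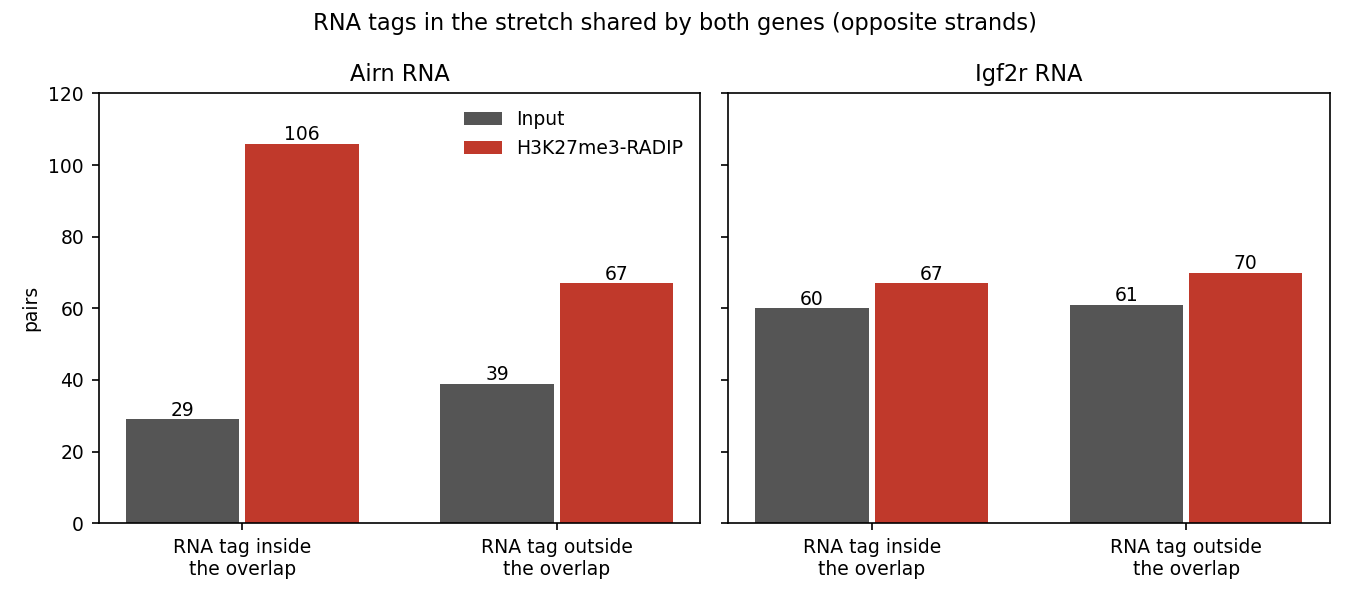
Bars give the number of listed pairs of Airn (left) and Igf2r (right) whose RNA tag lies inside or outside the 28.4-kb stretch shared by the genes, in Input (grey) and H3K27me3-RADIP (red). Airn inside the stretch goes from 29 to 106, and the Igf2r bars are of nearly equal height in both tables.

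Most of the paired RNA was intronic, and for Airn almost all of it was. Introns held 67 of the 68 Airn tags of Input, 171 of the 173 of H3K27me3-RADIP, and 101 of 121 and 130 of 137 Igf2r tags. Tags in the Igf2r coding sequence numbered 13 and 4, and in its 3′ untranslated region 5 and 2. Repeat-masked sequence held 20.6% (12.7 to 31.6) and 19.1% (13.9 to 25.6) of the Airn RNA tags, against 14.4% of those of other RNAs paired within chromosome 17, in each table. Of the Airn DNA tags, 11.8% and 9.83% were in masked sequence.

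At the start sites, Airn DNA tags within 5 kb of the Igf2r start numbered 8 in Input and 13 in H3K27me3-RADIP, and Igf2r tags within 5 kb of the Airn start numbered 5 and 20. Airn tags within 5 kb of its own start numbered 8 in each table, and Igf2r tags within 5 kb of its own start 14 and 6. At the Slc22a3 start there were 0 Airn tags in Input within 5 kb and 6 in H3K27me3-RADIP, and 0 and 4 of Igf2r. Over the Slc22a3 gene and 2 kb on each side, Airn tags numbered 0 and 28 and Igf2r tags 0 and 4. The bins there were not listed for either RNA in Input, where Airn may have up to 7 pairs in each, so these zeros are of listed pairs only. Slc22a2 and Plg, the gene of plasminogen, had no listed pairs of either RNA in either table, and unlisted bins there need not be empty. Over Mas1, which overlaps the 3′ part of Airn, listed Airn tags numbered 5 and 16, and Igf2r tags 0 and 6. The bin at the 3′ end of Airn, which overlaps Mas1, was not listed for either RNA in Input, so these counts do not show a rise.

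The cluster's own RNAs were few. Slc22a3 RNA had 14 pairs in Input against 43 in H3K27me3-RADIP, a ratio of 2.83 (1.52 to 5.61), and Slc22a2 had 7 and 11, a ratio of 1.45 (0.513 to 4.41). Slc22a3 RNA was listed in 2 bins in Input and in 4 in H3K27me3-RADIP, so its ratio, like the counts and median below, leaves out pairs in unlisted bins. Plg (8 pairs) was listed only in H3K27me3-RADIP, and Mas1 in neither table. Of these 4 genes, 2 had a ratio of at least 1.41 and 0 one as low on the other side, with a median of 2.14 over the 2 listed in both tables, against 17.5% of all 8756 RNA names at or above 1.41 and 25.5% at or below its inverse. Of 18 flanking genes, 12 were listed in each table, 10 of them in both. Their median ratio was 1.008, with 1 at or above 1.41 (Smoc2, an extracellular matrix protein, with 37 and 68 pairs) and 4 on the other side, of which Wtap had 38 and 18 pairs.

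Few RNAs shared the DNA around the pair. In the 8 bins that hold both genes, 3 RNAs were listed in Input: Igf2r with 113 of 198 pairs, 57.1%, Airn with 68, 34.3%, and Agpat4 with 17, 8.59%. In H3K27me3-RADIP these held 129, 124 and 67 of 336 pairs, and Map3k4, a stress-pathway kinase, had 8. Airn thus had 36.9% of the pairs there (31.9 to 42.2) and Igf2r 38.4% (33.4 to 43.7). In the 5 bins at Slc22a3 and Agpat4 that list Airn in H3K27me3-RADIP, Agpat4 RNA had 64 pairs in Input against 60 in H3K27me3-RADIP, and Slc22a3 RNA had 14 and 34. Airn had none listed in Input and 49 in H3K27me3-RADIP, 32.5% of the 151 pairs there. The choice of bins fixed that difference for Airn, so it is not set against the other RNAs.

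**Figure D5:**
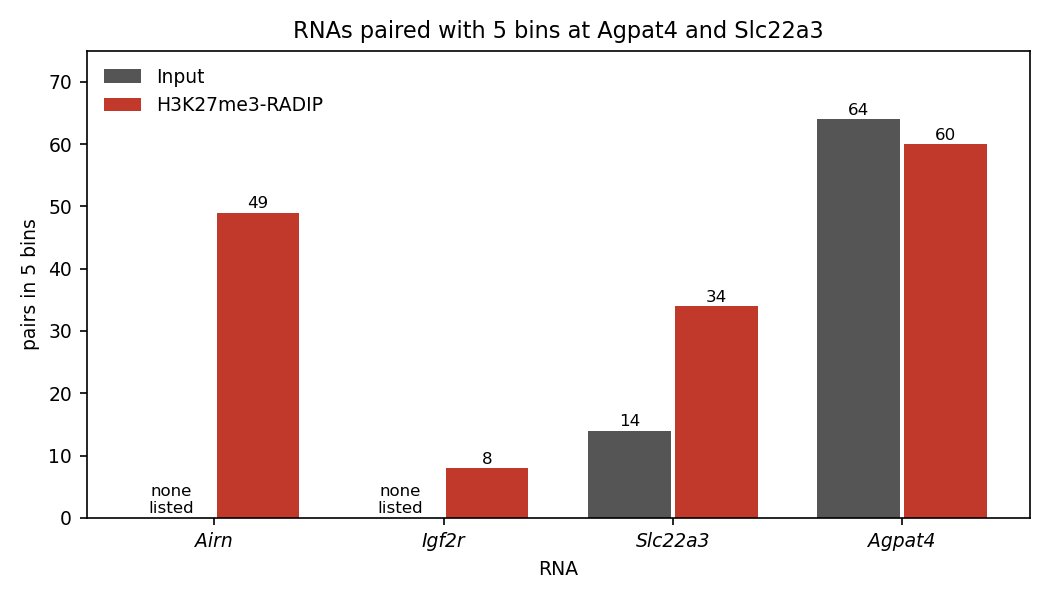
Bars give the pairs of 4 RNAs with the 5 bins at Slc22a3 and Agpat4 listed for Airn in H3K27me3-RADIP, in Input (grey) and H3K27me3-RADIP (red). Airn and Igf2r are listed there only in H3K27me3-RADIP, with 49 and 8 pairs, and Agpat4 has 64 and 60; the bins were chosen by the H3K27me3-RADIP listing of Airn.

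The RNAs whose bins were most like those of Airn were its neighbours. By the Jaccard index, the bins shared by a pair of RNAs over the bins of either, and among RNAs of chromosome 17 with at least 10 bins in H3K27me3-RADIP, Agpat4 came first for Airn at 0.191 (9 shared bins) and then Map3k4 at 0.0435. With no such minimum Igf2r came first for Airn at 0.462 and Slc22a3 next at 0.214, with 3 of its 4 bins shared. For Igf2r, among RNAs with at least 10 bins, Airn came first at 0.462, with all 6 Igf2r bins shared, then Agpat4 at 0.0889 and Map3k4 at 0.0625. With no minimum, Slc22a3 at 0.111 came between Airn and Agpat4. In Input only Agpat4, of 59 such RNAs, shared a bin with Airn (0.0323) or with Igf2r (0.0313), and Airn and Igf2r, which have fewer than 10 bins there, had an index of 0.375 with 3 shared bins. Pairs at the same bins as Igf2r thus made up 92 of 173 Airn pairs in H3K27me3-RADIP and 39 of 68 in Input.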

How the data were processed

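RADIP ligates RNA to nearby DNA through a bridge adaptor in fixed nuclei and then pulls down chromatin with an antibody to H3K27me3. Input had no antibody. The authors mapped the tags to mm10 (the submitters' processing notes name BWA 0.7.15-r1140, CASAVA 1.8.2 and STAR 2.5.0a), kept unique pairs, removed DNA tags in blacklisted regions, assigned RNA tags to GENCODE genes by strand and merged the 8 libraries of each condition. The study describes 4 biological replicates of each, and how the libraries belong to them is not given in the sources used here. They fitted a modified CHiCANE negative binomial model to pairs per RNA and 25-kb bin, with the trans reads of each RNA as covariate. The deposited tables hold 1 line per pair, with an unadjusted p-value and a q-value. Other columns give the tag coordinates, which were found to count from 0, the strands, and the gene identifier, name, class and region of the RNA. The authors kept only pairs at a q-value of at most 0.1, so the values are listed contacts and not all reads.

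Lines were counted per RNA and divided by all pairs of the table, 1305107 in Input and 1415135 in H3K27me3-RADIP. A count of 0 is of listed pairs and sets no level, since unlisted pairs are not in the tables. Shares have 95% Wilson intervals, ratios of shares exact conditional binomial intervals and the odds ratio a Woolf interval. All cover counting error only, as there are no molecular identifiers. With 1 merged table per condition no replicate error can be had and no test was run. A pair was placed in a gene, or on a side of it, by the centre of its DNA tag. Gene positions were read from a GENCODE release older than theirs but of the same build, and sequences from RefSeq GRCm38.p6. Python 3.11.15, numpy 2.4.6, pandas 2.3.3, scipy 1.17.1 and matplotlib 3.10.9 were used, and the ratio code was tested on simulated data.

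The genes and lists were chosen with earlier results of these data known. Besides Airn and Igf2r, the text names genes of the imprinted cluster and its flanks, Kcnq1ot1, cell type markers, the 3 RNAs of chromosome 17 with at least 10 bins most like each gene by bins, the genes at the 5 bins outside each gene with most pairs, and the 3 RNAs with most pairs at the bins of both genes. Others were chosen after their values were seen. Some genes that meet this rule are not reported here. Alternatives were a q-value of at most 0.01, repeated pairs counted once, other denominators, shared bins, RNA tags outside the overlap, and other definitions of own gene and distance.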

Additional observations from a re-analysis of the deposited data

How the results depend on the processing

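Of 67 values under an alternative, 55 stayed within the interval or quartiles of the reported value (within 1.5 times for numbers of bins), 12 moved beyond it and 0 were counted as reversed. Values inside the interval were not so counted. The ratio of Igf2r pairs, 1.04, was 0.991 at a q-value of at most 0.01. With 7 pairs given to each bin unlisted in Input it was 0.936, so both fell below 1. The ratio of Airn pairs was 1.23 over bins listed in both tables, 1.58 with RNA tags outside the overlap only, and 1.29 with 7 pairs given to each bin unlisted in Input, an alternative chosen after seeing the data. The odds ratio of Airn to Igf2r was 1.13 and 1.497 under the first pair of these settings. With every bin that overlaps a gene counted as its own, Airn had 0% of pairs outside in Input and 100% of outside pairs on the low-coordinate side in H3K27me3-RADIP, and Igf2r had 0% on that side in Input. At a q-value of at most 0.01, 4.13% of Igf2r pairs were outside in H3K27me3-RADIP. Measured from the start site, median distances were 45.6 kb for Airn in Input, 46.2 kb for Igf2r in Input and 49.9 kb for Igf2r in H3K27me3-RADIP. The settings themselves leave out bins or tags or change the point of origin. Leaving out a library could not be done, and contacts of Airn or Igf2r with under 8 pairs in a bin were not listed. No paired analysis was possible because the libraries of each condition were merged into 1 table.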
